A study of Mus musculus with 15 samples.

Results

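Sesn1, Sesn2, Sesn3, Zmat3, Ei24, Phlda3, Xpc, Ddb2, Polk and Plk2 were chosen by name as known p53 targets of nutrient sensing, survival signalling and DNA repair, and these 10 genes were read out of the 20207 genes listed for each library. The rule reads no expression value, but the genes were proposed with earlier results of these data known. The mRNA-seq libraries were made from NIH3T3 cells (fibroblasts derived from mouse embryos) with a stable DD-GFP transgene, a fusion of superfolder GFP to a destabilizing domain (DD) derived from FKBP with the L106P change. The DD is folded while its ligand Shield-1 (S1) is bound and unfolds when S1 is taken away. The transgene was present in the cells of all 15 libraries, which were a pool sorted for high GFP and had been kept in S1. There were 5 libraries of unperturbed cells with S1 (labelled cont, time 0) and libraries of cells in which the DD had been left unfolded for 45 min (n = 3), 135 min (n = 3) or 405 min (n = 4) after S1 was withdrawn by adding purified FKBP(F36V) protein to the medium. The methods also add that protein to a line that expresses GFP without the DD. That line is not among the 15 libraries, so within them the addition of the protein and the unfolding of the DD cannot be told apart. By RT-qPCR of selected genes, the paper saw no significant transcript changes in the GFP line after the ligand was withdrawn. It also describes mRNA-seq, at matching times, of cells with GFP alone handled with S1 like the DD-GFP cells, to find effects of S1. The labels do not say whether replicates were separate cultures, so p-values measure the spread between these libraries, which may be technical.

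p53 is a transcription factor that is held at a low level by the ubiquitin ligase Mdm2 and accumulates under DNA damage and other stresses, when it binds paired copies of a short recognition sequence near its target genes. Sestrins are small stress-induced proteins that restrain the growth kinase complex mTORC1 by binding the GATOR2 complex, where Sesn2 also acts as a sensor of leucine. Sesn1 and Sesn2 are established p53 targets, Sesn2 is in addition a target of ATF4 and NRF2, and Sesn3 is known as a FoxO target. The other 7 genes act further from the nutrient pathway: Zmat3 is a zinc-finger RNA-binding protein, Ei24 an endoplasmic reticulum membrane protein with a role in autophagy, Phlda3 a lipid-binding antagonist of the survival kinase Akt, and Plk2 a polo-like kinase of centriole duplication. Xpc and Ddb2 recognize damaged DNA in nucleotide excision repair, and Polk is a polymerase that copies past damaged bases.

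The reading of the values rests on depth and on one property of the libraries. The total count per library ran from 6652539 to 30258404. The slope of log2 level on the GC content of a gene's exons, computed across genes in each library, divided the libraries at its widest gap into 10 libraries of set 1, with slopes from -1.419 to -0.67 per 10 percentage points of GC, and 5 of set 2, with slopes from -0.387 to 0.028. The widest gap, 0.283, barely exceeded the next widest, 0.281. Set 2 held 1 of 5 control libraries (replicate 2), 1 of 3 at 45 min (replicate 3), none at 135 min and 3 of 4 at 405 min (replicates 1, 2 and 4), so the set moved with time, and 50.1% of the 10276 genes tested differed between the sets in a fit that held both group and set. The methods name more than one way of making the libraries and do not tie them to samples, so the main differences from control are given by group alone and with the set as a covariate. The cells carried the fibroblast markers in every library, with Col1a1 between 1634.4 and 3783.5 CPM and Pdgfrb between 56.1 and 157.9 CPM. CPM are counts per 1000000 of a normalized library size, as defined below. The epithelial marker Epcam did not exceed 0.8 CPM and the leucocyte marker Ptprc did not exceed 0.7 CPM.

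In the mm9 assembly used for the deposited tables, Polk was listed at chr13:97250644-97312440 and Plk2 on the same chromosome at chr13:111185252-111191051. Sesn2 was listed at chr4:132048722-132066371, Sesn3 at chr9:14080745-14130578, Ei24 at chr9:36586741-36604653 and Zmat3 at chr3:32233716-32264587. Phlda3 was listed at chr1:137662662-137665710, Xpc at chr6:91439302-91465882 and Ddb2 at chr2:91052013-91077135. Sesn1 was listed at chr10:41607245-41628242 in 10 libraries and at chr10:41530380-41628242 in the other 5, which were replicate 3 at 45 min and all 4 libraries at 405 min. The second listing begins at an upstream start, and its transcript, as implied by count and RPKM together, was 1.22 times as long. In the GENCODE annotation of the same assembly, the exons of Ddb2 share 652 bases (23.8% of its exon length) with Acp2 on the opposite strand, and those of Ei24 share 62 bases (2.8%) with the opposite-strand RNA Gm16881. The strand setting of the counting is not given in the sources used here, so reads in those stretches cannot be told apart.

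The DNA around the listed start of each gene was searched because the genes are grouped as p53 targets. The p53 full site was taken as 2 decamers in direct succession, each made of 3 purines, C, 2 bases that are A or T, G and 3 pyrimidines, and up to 2 mismatches were allowed outside the C and the G. Within 5000 bases to either side of the start, on either strand, Zmat3 held a site with no mismatch, which 0.22% of the 18999 genes scanned also did, and it was the only one of the 10 genes to hold one. It lies at chr3:32263253-32263272, 1324 bases downstream of the start and outside the gene's exons. A further Zmat3 site with 1 mismatch lies at chr3:32269073-32269092, at -4496 bases from the start. At up to 2 mismatches only Plk2 was added, with sites at chr13:111183090-111183109 and chr13:111184602-111184621, at -2152 and -640 bases, a level of match found at 10.37% of genes. The 4 sites are shown 5′ to 3′ on the gene's strand, with the 4 core bases of each decamer in capitals.
Zmat3, no mismatch: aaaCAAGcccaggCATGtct
Zmat3, 1 mismatch: gagCAAGtctgggCTTGtta
Plk2, 2 mismatches, farther site: caaCATGcccgggCTTGcat
Plk2, 2 mismatches, nearer site: gatCTTGcttagaCTTGttg
A match is a description of letters and not of binding, and genes without a match in this window may hold sites elsewhere.

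RefSeq promoter windows of the GRCm38.p6 assembly were at hand for 7 of the 10 genes (Sesn1, Sesn2, Sesn3, Ei24, Phlda3, Polk and Plk2), in 9 windows, since Sesn1 and Polk have 2 starts each. Zmat3, Xpc and Ddb2 had no entry. A single p53 decamer without mismatch occurred in 3 of the 9 windows (Ei24, Polk and Sesn1), against 8.36% of all 32851 windows. The core of the antioxidant response element bound by NRF2, TGACNNNGC on either strand, occurred in 1 of the 9 (Sesn2), against 12.39% of all windows. The 250 bases upstream of the start are printed for Sesn2, Ei24 and Phlda3, whose mRNAs moved together across the libraries as described further on, and for the inner start of Sesn1, the transcript listed in most libraries. Capitals mark the p53 decamer or the NRF2 motif.
Sesn2, chr4:132510457-132510706, minus strand: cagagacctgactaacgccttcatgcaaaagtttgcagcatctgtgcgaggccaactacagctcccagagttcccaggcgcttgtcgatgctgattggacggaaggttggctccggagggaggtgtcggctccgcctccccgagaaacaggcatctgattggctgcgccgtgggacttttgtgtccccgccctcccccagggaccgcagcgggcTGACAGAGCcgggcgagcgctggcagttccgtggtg
Ei24, chr9:36797335-36797584, minus strand: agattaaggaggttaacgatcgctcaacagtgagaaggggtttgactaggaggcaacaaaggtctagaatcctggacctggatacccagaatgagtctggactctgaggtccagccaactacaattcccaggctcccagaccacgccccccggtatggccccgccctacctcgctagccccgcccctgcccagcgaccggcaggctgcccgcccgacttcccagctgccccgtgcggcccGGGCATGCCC
Phlda3, chr1:135765835-135766084, plus strand: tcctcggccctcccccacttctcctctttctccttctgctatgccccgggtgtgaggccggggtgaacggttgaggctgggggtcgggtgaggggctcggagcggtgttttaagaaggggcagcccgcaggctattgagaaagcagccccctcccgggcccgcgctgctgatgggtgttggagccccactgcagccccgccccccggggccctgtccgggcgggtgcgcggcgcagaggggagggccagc
Sesn1, inner start, chr10:41887189-41887438, plus strand: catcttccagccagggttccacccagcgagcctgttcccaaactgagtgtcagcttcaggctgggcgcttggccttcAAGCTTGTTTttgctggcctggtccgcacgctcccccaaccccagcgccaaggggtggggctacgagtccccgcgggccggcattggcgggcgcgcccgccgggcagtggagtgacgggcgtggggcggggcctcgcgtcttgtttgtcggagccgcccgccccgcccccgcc
The Phlda3 window holds neither motif. GC made up 71.2% of its bases and of those of the inner Sesn1 window, and 63.2% of the Sesn2 and Ei24 windows.

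Measured per length, as deposited RPKM, Plk2 was the most abundant of the 10 mRNAs in unperturbed cells, at 21.1 ± 5.26 RPKM (SD, n = 5). Ei24 followed at 9.96 ± 5.34 RPKM, Phlda3 at 9.13 ± 9.76 RPKM, Sesn1 at 6.88 ± 1.6 RPKM, Zmat3 at 4.9 ± 2.43 RPKM and Polk at 3.62 ± 0.852 RPKM. The 4 scarcest mRNAs lay between 1.3 and 1.77 RPKM (Sesn2, Ddb2, Xpc and Sesn3). Apart from the steps from Plk2 to Ei24 and from Polk to Sesn3, neighbours in this order lay closer to each other than the larger of their SDs, so their ranks in control cells are not resolved. Among the Sestrins, Sesn1 exceeded the others per length in control cells, and its RPKM in the 5 libraries that list the longer transcript is not on the same length as in the rest. In a bulk sample, a lower level in each cell and fewer cells expressing a gene cannot be told apart.

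**Figure D1:**
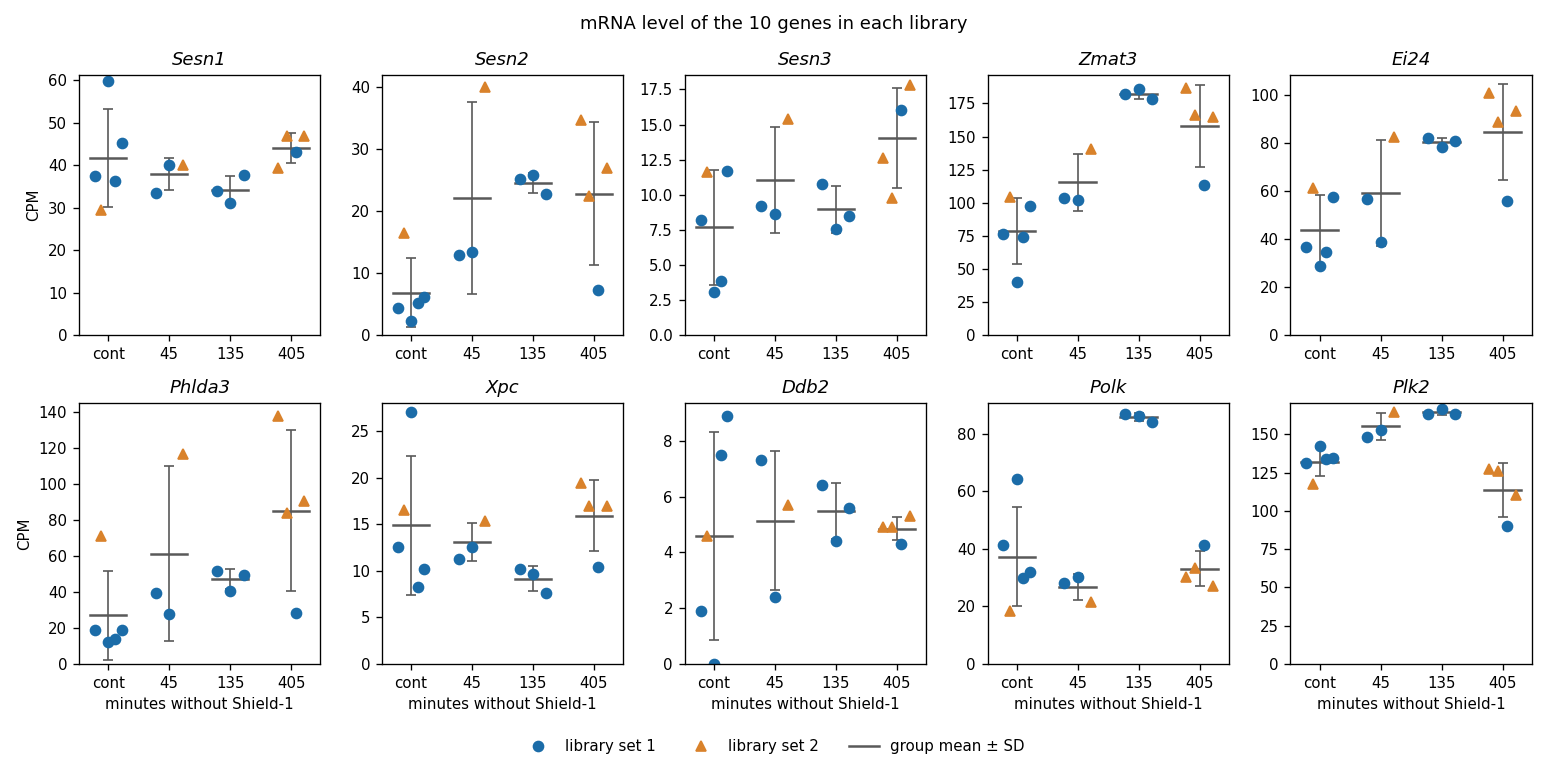
Level of each of the 10 genes in each of the 15 libraries (y axis, CPM, linear and starting at 0) by time without S1 (x axis; cont is the unperturbed group). Circles are libraries of set 1, triangles of set 2, and grey lines give the group mean ± SD. The 3 Polk points at 135 min sit between 84.2 and 87.0 CPM, above every other library, and the triangles lie above the circles of their own group in Sesn2, Ei24, Phlda3 and Zmat3.

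Of the Sestrins, Sesn2 was the one whose mRNA passed the test, and it did so at 405 min. In control replicates 1 to 5 it was measured at 4.4, 16.4, 2.3, 5.2 and 6.1 CPM. It was at 13.0, 13.4 and 40.0 CPM at 45 min, at 25.1, 25.8 and 22.7 CPM at 135 min, and at 34.6, 22.5, 7.3 and 26.9 CPM at 405 min. The highest control library and the highest 45-min library were both of set 2, and the low library at 405 min was the only one of set 1 in that group. All 3 libraries at 135 min lay above all 5 controls, whereas the 45-min and 405-min groups overlapped the controls. Sesn2 was 1.66 (SE 0.55) higher on the log2 scale at 45 min by edgeR's quasi-likelihood test (adjusted p = 0.698), 1.80 (SE 0.55) higher at 135 min (adjusted p = 0.161) and 1.70 (SE 0.52) higher at 405 min (adjusted p = 0.031), which is 3.26-fold.

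With the library set as a covariate, Sesn2 passed at the 2 earlier times and missed at the last. The difference in this edgeR fit was 1.43 (SE 0.23) at 45 min with adjusted p = 0.0375, where 0.0292% of the genes tested were called higher and Sesn2 was 1 of those 3 genes. It was 2.38 (SE 0.23), 5.22-fold, at 135 min with adjusted p = 1.23e-05, and 0.76 (SE 0.24) at 405 min with adjusted p = 0.0502. In the same fit Sesn2 fell by 1.62 (SE 0.29) between 135 and 405 min with adjusted p = 0.00625, as 1 of 2 genes of the 9 called lower (with Plk2) beside 2.01% of all genes, while by group alone that change was -0.10 (SE 0.58). Libraries of set 1 taken alone gave means of 4.5 CPM in 4 controls, 13.2 CPM in 2 libraries at 45 min, 24.5 CPM in 3 at 135 min and 7.34 CPM in 1 at 405 min. Libraries of set 2 gave 16.4 CPM in 1 control, 40.0 CPM in 1 library at 45 min and 28.0 CPM in 3 at 405 min. In both sets the 45-min libraries were above the controls of that set, which compares 2 libraries with 4 and 1 with 1. The share of all genes that did so was not computed. The 45-min difference nevertheless missed the threshold in every other fit made, among them the fits within set 1 (1.51, edgeR adjusted p = 0.339) and within set 2 (1.29, adjusted p = 0.902), with an offset for GC content in each library (1.42, adjusted p = 0.72) and with the replicate number as a block together with the set (1.63, adjusted p = 0.0868). The 405-min call by group alone was lost when any one of control replicates 1, 3, 4 and 5 or of 405-min replicates 1, 2 and 4 was left out (edgeR adjusted p from 0.0563 to 0.106), and without control replicate 2 the 135-min difference was 2.40 and passed (adjusted p = 0.0159).

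Sesn1 and Sesn3 were not called at any time in either fit. Sesn1 was at 37.6, 29.6, 59.8, 36.3 and 45.2 CPM in the controls, and all 10 perturbed libraries, from 31.1 to 46.9 CPM, lay within that range. Its log2 differences were -0.13 (SE 0.20), -0.28 (SE 0.20) and 0.08 (SE 0.18) at 45, 135 and 405 min by group alone, and -0.10 (SE 0.19), -0.30 (SE 0.19) and 0.18 (SE 0.20) with the covariate. The listing of the longer Sesn1 transcript at 405 min went with no called difference in its count. Sesn3 was at 8.2, 11.6, 3.1, 3.9 and 11.7 CPM in the controls and reached 12.6, 9.8, 16.0 and 17.8 CPM at 405 min, with a difference of 0.85 (SE 0.36) and an edgeR adjusted p = 0.0951. That difference passed without control replicate 2 (1.04, adjusted p = 0.0317) and was 0.66 (SE 0.36) with the set as a covariate (adjusted p = 0.251). Sesn3 had between 18 and 323 counts per library, with only Sesn2 and Ddb2 reaching lower, and by group alone the difference at 405 min did not stand out from the spread between libraries.

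Zmat3, Ei24 and Phlda3, which act in RNA regulation, autophagy and Akt signalling, were called higher with Sesn2 at 405 min. At 45 min none of the 9 tested genes, and 0.0% of all 10276, was called by edgeR by group alone, 365 genes and 2 of the 9 had an unadjusted p under 0.05, and DESeq2 called 0.0195% of genes higher and 0.0389% lower with none of the 9 among them. At 135 min, 1 of the 9 tested genes was called higher by group alone (Zmat3), against 0.564% of all genes tested, and at 405 min 4 of 9 were, against 9.99% of all genes tested. No gene of the 10 was called lower than control at any time, where 0.895% of all genes at 135 min and 13.4% at 405 min were. With the set as a covariate the counts were 5 of 9 at 135 min (Sesn2, Zmat3, Ei24, Phlda3 and Polk), where 3.06% of all genes were called higher, and 2 of 9 at 405 min (Zmat3 and Phlda3), where 6.17% were. By group alone the median log2 difference of the 9 genes was 0.44 at 45 min, 0.80 at 135 min and 0.85 at 405 min. The medians over all genes were 0.02, -0.06 and 0. With the covariate the 9 genes had medians of 0.31, 1.04 and 0.54, beside 0.01, -0.01 and -0.01 over all genes. The order of 135 and 405 min thus turned between the fits. The 3 comparisons share the 5 control libraries.

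**Figure D2:**
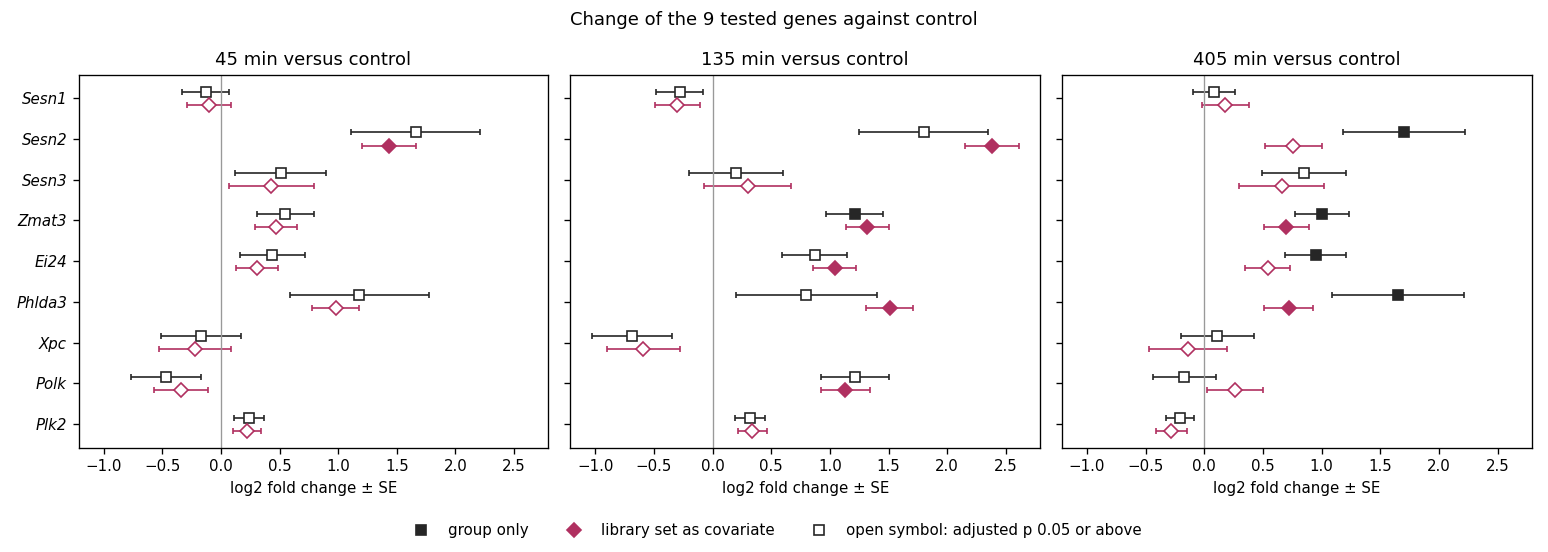
Log2 fold change against control (x axis, ± SE) of the 9 tested genes at 45, 135 and 405 min. Squares are the fit by group alone, diamonds the fit with the library set as a covariate, and filled symbols passed an adjusted p of 0.05. Filled diamonds outnumber filled squares at 135 min (5 against 1), and at 405 min the reverse holds (2 against 4).

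Zmat3 was called higher at both later times, by group alone and with the set as a covariate. Its control libraries were at 76.6, 104.7, 40.6, 74.3 and 98.0 CPM and its 45-min libraries at 103.3, 102.4 and 140.5 CPM. It rose to 182.4, 186.0 and 178.5 CPM at 135 min and was at 187.0, 166.6, 113.8 and 164.7 CPM at 405 min. Every library at 135 min and at 405 min lay above every control, and it alone of the 10 did so at both times. At 405 min 6.75% of all tested genes lay wholly above the controls. The rise was 2.31-fold at 135 min (log2 1.21, SE 0.24, edgeR adjusted p = 0.021) and 2.0-fold at 405 min (log2 1.0, SE 0.23, adjusted p = 0.00828). With the set as a covariate both calls stood, at 1.32 (SE 0.18) and 0.70 (SE 0.19), with edgeR adjusted p = 0.000383 and 0.0245. By group alone the 135-min call was lost without control replicate 1 or 4 or any one of the 135-min libraries (adjusted p from 0.0579 to 0.11, log2 difference from 1.19 to 1.22), and no single library ended the 405-min call.

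Ei24 was at 36.6, 61.2, 28.8, 34.7 and 57.6 CPM in the controls and at 56.6, 38.7 and 82.6 CPM at 45 min. Its 135-min libraries, at 82.0, 78.1 and 80.6 CPM, were all above the controls. At 405 min the values were 100.8, 88.7, 55.8 and 93.3 CPM, where the third replicate, of set 1, fell back among the controls. Ei24 was 0.87 (SE 0.28) higher at 135 min (edgeR adjusted p = 0.174) and 0.95 (SE 0.26) higher at 405 min (adjusted p = 0.0201). The covariate exchanged the calls, with 1.04 (SE 0.18) at 135 min (adjusted p = 0.00308) and 0.54 (SE 0.19) at 405 min (adjusted p = 0.0783). The 405-min call by group alone was lost without control replicate 4 or without 405-min replicate 1, 2 or 4 (adjusted p from 0.0519 to 0.069).

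Phlda3 had the widest spread among the controls relative to its mean. It was at 18.9, 71.3, 11.9, 13.7 and 18.9 CPM in the controls, at 39.7, 27.6 and 116.9 CPM at 45 min, at 51.6, 40.7 and 49.2 CPM at 135 min and at 138.2, 84.0, 28.5 and 90.6 CPM at 405 min. In each mixed group the set 2 libraries were the high ones, and the single set 2 control stood above all 3 libraries at 135 min. Within set 1 Phlda3 was at 11.9 to 18.9 CPM in 4 controls and at 27.6 to 39.7 CPM in 2 libraries at 45 min. It was at 40.7 to 51.6 CPM in 3 at 135 min and at 28.5 CPM in 1 at 405 min. These ranges did not overlap, apart from the last value, which lay inside the 45-min range. The share of all genes separated in this way was not computed. By group alone Phlda3 was 0.80 (SE 0.60) higher at 135 min and 1.65 (SE 0.56) higher at 405 min, with edgeR adjusted p = 0.652 and 0.0451. With the covariate it was 1.51 (SE 0.20) and 0.72 (SE 0.21) higher, with edgeR adjusted p = 0.000248 and 0.0291, so that the earlier time had the larger difference. The change from 135 to 405 min was 0.86 (SE 0.65) by group alone and -0.79 (SE 0.25) with the covariate, and neither passed (edgeR adjusted p = 0.382 and 0.0924). The 405-min call by group alone was lost without any one of control replicates 1, 3, 4 and 5, 45-min replicate 1, the 3 libraries at 135 min and 405-min replicates 1, 2 and 4 (adjusted p from 0.0544 to 0.152).

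The sets were split by their slopes on GC, so a relation between the set term and the base composition of genes is built into them. Set 2 exceeded set 1 by 1.95 (SE 0.18) on the log2 scale for Phlda3, by 1.78 (SE 0.21) for Sesn2, by 0.72 (SE 0.17) for Ei24 and by 0.53 (SE 0.17) for Zmat3, and it was lower by a log2 difference of -0.69 (SE 0.21) for Polk. These 5 genes passed the edgeR test of the set term (adjusted p from 4.12e-06 to 0.0166), and Sesn1, Sesn3, Xpc and Plk2 did not. The same test was passed by 50.1% of all genes tested, so passing it does not set these genes apart. The exons of Phlda3 are 61.8% GC and those of Sesn2 58.7%, which only 1.1% and 5.4% of the tested genes exceed. Those of Polk are 41.7% GC, and 10.7% of the tested genes are lower. Exonic GC lay between 46.7% and 52.0% for the other 6 tested genes, around the median of 49.1% over tested genes. Among these the set term was -0.15 (SE 0.17) for Sesn1 at 46.7% and 0.11 (SE 0.11) for Plk2 at 48.0%. Zmat3 at 48.2% and Ei24 at 49.7% passed. Sesn3 at 50.3% (0.41, SE 0.31) and Xpc at 52.0% (0.44, SE 0.28) did not, with larger standard errors. A relation to GC among these genes was not tested. Replacing the set term by an offset for GC content in each library left 3 genes called higher at 135 min (Sesn2, Zmat3 and Polk), where 1.08% of all genes were, and the same 4 names as by group alone at 405 min, where 12.7% were.

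**Figure D3:**
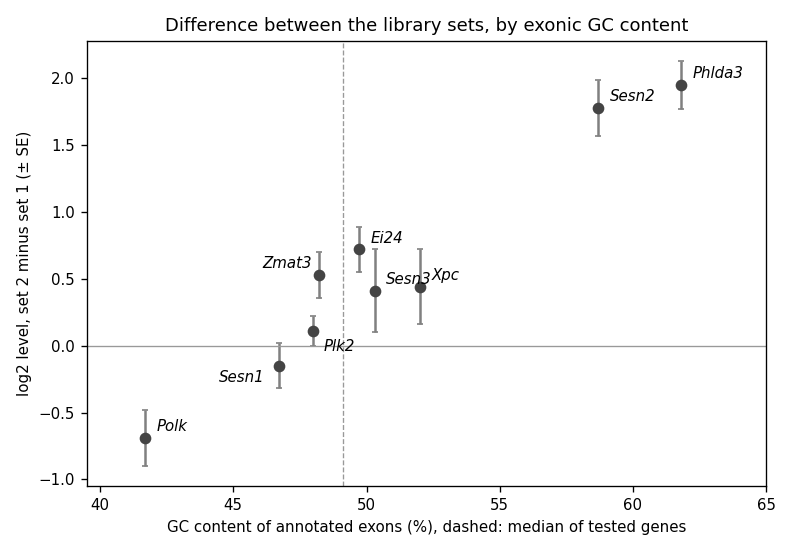
Log2 difference in level between library sets, set 2 minus set 1 (y axis, ± SE, from the fit with group and set), against GC content of the annotated exons (x axis, percent) for the 9 tested genes. Phlda3 and Sesn2, at 61.8% and 58.7% GC, stand highest, at 1.95 and 1.78, and Polk, at 41.7% GC, stands lowest, at -0.69.

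Set 1 held 4 controls and all 3 libraries at 135 min. The covariate fit at that time rests largely on these, so the 2 fits are not independent. Within set 1 alone, the same 5 genes were called higher at 135 min as with the covariate, against 2.11% of all genes tested. The differences there were 2.41 (SE 0.29) for Sesn2, 1.56 (SE 0.22) for Phlda3, 1.33 (SE 0.23) for Zmat3, 1.05 (SE 0.23) for Polk and 1.02 (SE 0.23) for Ei24, with edgeR adjusted p from 0.00166 to 0.0315. At 405 min no gene of the 10 passed within either set, where 1.18% (set 1) and 2.36% (set 2) of all genes were called higher and the comparison rested on 1 library against 4 in set 1 and on 3 against 1 in set 2. The single library of each such group was assumed to vary like the others. The differences of the 4 genes called by group alone were positive in both sets, from 0.49 to 0.83 in set 1 and from 0.56 to 0.78 in set 2. These genes were called higher from the same libraries, so their sign within the sets is not independent of that choice.

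Polk, the translesion polymerase, was high at 135 min and at no other time. Its control libraries were at 41.4, 18.5, 64.3, 30.0 and 32.1 CPM, and those at 45 min at 28.2, 30.3 and 21.5 CPM. The 135-min libraries were at 87.0, 86.1 and 84.2 CPM, and those at 405 min at 30.3, 33.3, 41.4 and 27.2 CPM. The 135-min values lay above all other libraries (against the 45-min group, 9.91% of all tested genes did so), the closest being the shallowest one, control replicate 3, at 64.3 CPM. Polk was 1.21 (SE 0.29) above control at 135 min, which missed the threshold by group alone (edgeR adjusted p = 0.0515) and passed with the set as a covariate (1.13, SE 0.21, adjusted p = 0.00506) and without control replicate 2 or 3 (1.04 and 1.49, adjusted p = 0.0299 and 0.00417). At 45 and 405 min its differences from control were -0.47 (SE 0.30) and -0.17 (SE 0.27) by group alone, and the latter was 0.26 (SE 0.24) with the covariate.

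The steps into and out of the 135-min peak of Polk were tested directly. It was the only one of the 9 genes called higher at 135 min than at 45 min, by 3.22-fold (log2 1.69, SE 0.34, edgeR adjusted p = 0.0405), where 0.185% of all genes were called higher, and the call stood with the covariate (1.47, SE 0.26, adjusted p = 0.00795), where 0.438% were. Between 135 and 405 min, 2 of the 9 genes were called lower by group alone, Polk by a log2 difference of -1.38 (SE 0.30, edgeR adjusted p = 0.0209) and Plk2, against 2.82% of all genes. With the covariate the fall of Polk was -0.87 (SE 0.28) and missed the threshold (adjusted p = 0.102). Leaving out any one of the 3 libraries at 135 min or of 405-min replicates 1, 2 and 4 also ended that call (adjusted p from 0.0538 to 0.0946), and the rise from 45 min was lost without any one of 12 libraries, the exceptions being control replicates 2 and 3 and 405-min replicate 3 (adjusted p from 0.0569 to 0.218). The study's primer pair for Polk RT-qPCR, shown to place its amplicon, matches 7 of the 8 coding transcripts of the GENCODE annotation and spans 149 bases.
Polk forward primer: agctcaaattaccagccagca
Polk reverse primer: ggttgtccctcatttccacag

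Plk2, the most abundant of the 10 mRNAs per length, varied over the narrowest range relative to its level. It was at 131.3, 117.3, 142.2, 133.9 and 134.8 CPM in the controls. It was at 148.3, 152.6 and 164.9 CPM at 45 min, at 163.1, 166.5 and 163.3 CPM at 135 min and at 127.6, 126.2, 89.8 and 110.7 CPM at 405 min. Both the 45-min and the 135-min libraries lay above every control, which held for 0.467% and 4.79% of all tested genes in those comparisons. At 135 min Sesn2, Zmat3, Ei24 and Polk did so too. The differences from control were nevertheless small, at 0.24 (SE 0.13) at 45 min, 0.32 (SE 0.13) at 135 min and -0.21 (SE 0.12) at 405 min, and none passed (edgeR adjusted p = 0.698, 0.323 and 0.183). With the covariate they were 0.22 (SE 0.12), 0.34 (SE 0.12) and -0.28 (SE 0.13), and again none passed (edgeR adjusted p = 0.49, 0.0827 and 0.157). The fall from 135 to 405 min did pass, at -0.53 (SE 0.14, adjusted p = 0.0371) by group alone and -0.62 (SE 0.15, adjusted p = 0.0317) with the covariate, and all 4 libraries at 405 min lay below all 3 at 135 min, as for Polk and for 17.6% of all tested genes. By group alone that call was lost without control replicate 1 or 4, 45-min replicate 1, any library at 135 min, or 405-min replicate 1, 2 or 4 (adjusted p from 0.0532 to 0.145).

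The excision repair genes Xpc and Ddb2 were not called against control in any fit. Xpc was at 12.5, 16.5, 27.0, 8.2 and 10.2 CPM in the controls, with the highest value in the shallowest library. It was at 11.3, 12.6 and 15.3 CPM at 45 min, at 10.2, 9.6 and 7.6 CPM at 135 min and at 19.4, 16.9, 10.4 and 17.0 CPM at 405 min. Its 135-min libraries lay below all those at 45 min and at 405 min, as 11.2% of all tested genes did against 45 min and 19.2% against 405 min. Against the controls they fell partly below the range. The log2 differences from control were -0.17 (SE 0.34), -0.69 (SE 0.34) and 0.11 (SE 0.31) by group alone and -0.22 (SE 0.31), -0.59 (SE 0.31) and -0.14 (SE 0.33) with the covariate. By group alone the step from 135 to 405 min was 0.80 (SE 0.35), with an edgeR adjusted p = 0.164.

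Ddb2 was not among the genes tested, because control replicate 3 had 0 counts for it. At that depth this allows up to 3 counts (counting error only), which is 0.45 per 1000000 of the total count without normalization. The other control libraries were at 1.9, 4.6, 7.5 and 8.9 CPM, and the 10 perturbed libraries lay between 2.4 and 7.3 CPM, inside the range of the controls. Under a looser filter that admits it, Ddb2 differed from control by 0.14 (SE 0.70), 0.23 (SE 0.70) and 0.02 (SE 0.65) at 45, 135 and 405 min, with edgeR adjusted p from 0.938 to 0.982. With standard errors of this size a doubling or halving of Ddb2 was not detectable.

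Across the 15 libraries, which share depth and set with every other gene, log2 levels of Sesn2, Zmat3, Ei24 and Phlda3 correlated with one another at Pearson r from 0.79 (Zmat3 and Phlda3) to 0.93 (Zmat3 and Ei24). Sesn3 correlated with these 4 at 0.64 to 0.71, Sesn1 with them at -0.40 to -0.22, and Polk with them at -0.29 to 0.13. Of all tested genes, the 3 with the highest r to Polk were Slc19a2 (0.947), Ccl7 (0.941) and the heat shock gene Hspa1b (0.936). Those most like Sesn2 were Cbl, Myh9 and Fasn (0.927 to 0.929), and those most like Zmat3 were Carhsp1 (0.963), Utp20 (0.958) and 1700081L11Rik (0.952). The closest to Ei24 were Ptpn14, Foxo3 and Spen (0.948 to 0.967), to Phlda3 Mast2, Tln1 and Rangap1 (0.969 to 0.972), to Sesn1 Stambp, Kif3a and Mdm1 (0.882 to 0.904) and to Sesn3 F8a, D430042O09Rik and Stk25 (0.925 to 0.944). For Xpc these were Abi1, Atg7 and Nhlrc3 (0.899 to 0.916), for Ddb2 Cops6, Gmpr2 and Wasf1 (0.947 to 0.952) and for Plk2 Usp31, Igf1r and Slc16a1 (0.839 to 0.88). These values are descriptions of 15 libraries and no tests.

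The upstream genes were read beside the 10. Mdm2, the ligase that is itself a p53 target, was at 163 ± 41.4 CPM (SD) in the 5 controls, 999 ± 65.6 CPM at 135 min and 377 ± 47.7 CPM at 405 min, a rise on the log2 scale of 2.62 (SE 0.19, edgeR adjusted p = 6.19e-06) and 1.21 (SE 0.17, adjusted p = 0.000434). With the set as a covariate Mdm2 was 2.56 (SE 0.15) and 1.44 (SE 0.16) above control and passed at both times. Trp53, which encodes p53, was 0.21 (SE 0.52) above control at 135 min and 1.51 (SE 0.48) at 405 min (adjusted p = 0.924 and 0.0348), and with the set as a covariate 0.74 (SE 0.21) and 0.62 (SE 0.22) above it (adjusted p = 0.0412 and 0.0709). Of 10 genes that regulate p53, by group alone Mdm2 was the one called higher at 135 min, and at 405 min Mdm2 and Trp53 were called higher and Atr and Hipk2 lower. With the covariate Mdm2, Trp53 and the phosphatase gene Ppm1d (0.82, SE 0.20, edgeR adjusted p = 0.0192) were called higher at 135 min, and at 405 min Mdm2 was called higher and Hipk2 lower. Hipk2, a kinase that phosphorylates p53, fell by 0.75 (SE 0.12) in both fits at 405 min (edgeR adjusted p = 0.000944 by group alone). Of all genes, 0.564% were called higher at 135 min by group alone and 3.06% with the covariate. At 405 min 9.99% were called higher and 13.4% lower by group alone, and 6.17% and 6.87% with the covariate.

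Genes of the p53 programmes of arrest and apoptosis were called higher at both later times. Of the 6 arrest targets tested, 3 were called higher at 135 min by group alone and 5 at 405 min, where 0.564% and 9.99% of all genes were, and the medians over the list were 1.51 and 1.54. With the covariate 5 were called higher at each time, where 3.06% and 6.17% of all genes were, with medians of 1.55 and 1.28, so the order of the medians at the 2 times turned. The 3 called at 135 min by group alone were Trp53inp1, the cyclin-dependent kinase inhibitor Cdkn1a and Gtse1, with log2 changes of 2.61 (SE 0.28), 2.29 (SE 0.25) and 1.76 (SE 0.25), and with the covariate of 2.61 (SE 0.26), 2.46 (SE 0.15) and 1.94 (SE 0.13). The cyclin gene Ccng2 was the exception, called lower than control at 135 min with the covariate (-1.07, SE 0.30, edgeR adjusted p = 0.041), where 4.88% of all genes were, and not by group alone (-1.01, SE 0.33, adjusted p = 0.184).

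Of the 8 apoptosis targets tested, 5 were called higher at 135 min and 4 at 405 min by group alone, with medians of 1.04 and 0.67. With the covariate the counts were 5 and 3, with medians of 1.10 and 0.45, and at 405 min Aen and Apaf1 were no longer called while Fas was. The receptors Eda2r, Fas and Tnfrsf10b were 2.36 (SE 0.28), 2.09 (SE 0.41) and 1.56 (SE 0.19) above control at 135 min by group alone and 2.26 (SE 0.24), 2.03 (SE 0.37) and 1.53 (SE 0.18) with the covariate. None of the 8 was called lower than control at 135 or 405 min in either fit. The shares of all genes called higher at 135 and 405 min were 0.564% and 9.99% by group alone, and 3.06% and 6.17% with the covariate. The shares called lower were 0.895% and 13.4%, and 4.88% and 6.87%.

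Between 135 and 405 min, 3 apoptosis targets were called lower by group alone, where 2.82% of all genes were. They were Eda2r (-1.20, SE 0.30, edgeR adjusted p = 0.0322), Tnfrsf10b (-0.78, SE 0.20, adjusted p = 0.0371) and Apaf1, which encodes the scaffold of the apoptosome (-0.73, SE 0.16, adjusted p = 0.0196). Of the 3, only Apaf1 passed with the covariate (-0.80, SE 0.18, adjusted p = 0.0214). Of the arrest targets, Ccng2 was called higher over that step in both fits (1.36, SE 0.34, adjusted p = 0.036 by group alone), where 2.24% of all genes were by group alone and 1.66% with the covariate. With the covariate Cdkn1a (-1.04, SE 0.18) and Gtse1 (-0.79, SE 0.16) were called lower over it (edgeR adjusted p = 0.00653 and 0.0143), where 2.01% of all genes were. The lists hold genes known as p53 targets, so their direction is not independent of the choice of the 10.

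Other p53 targets of metabolism gave fewer calls. Of 6 tested, Lpin1, a lipid phosphatase and transcriptional coactivator, was called higher at 135 min (1.08, SE 0.18, edgeR adjusted p = 0.00717), and Lpin1 (0.68, SE 0.17, adjusted p = 0.0143) and the autophagy kinase gene Ulk1 (2.06, SE 0.35, adjusted p = 0.00159) at 405 min. Both stayed past the threshold at 405 min with the covariate, at 0.47 (SE 0.15) and 1.45 (SE 0.21), and with it both passed at 135 min. The shares of all genes called higher at 135 and 405 min were 0.564% and 9.99% by group alone, and 3.06% and 6.17% with the covariate. Of 9 tested partners of the Sestrins in the GATOR and KICSTOR complexes and their arginine-sensing arm, none was called higher at 135 or 405 min. The GATOR2 subunit genes Mios and Seh1l were called lower at 405 min, Mios from 60.8 ± 14.3 CPM in control to 24.8 ± 4.72 CPM (log2 -1.30, SE 0.22, adjusted p = 0.00145) and Seh1l from 225 ± 71.2 CPM to 97.5 ± 35.1 CPM (log2 -1.21, SE 0.27, adjusted p = 0.00827). With the covariate both remained called at 405 min, where 6.87% of all genes were called lower, at -0.92 (SE 0.16) and -0.83 (SE 0.23), and Mios was also called lower at 135 min (-0.71, SE 0.16, adjusted p = 0.0119). By group alone 13.4% of all genes were called lower at 405 min, and with the covariate 4.88% were at 135 min. Seh1l also belongs to the nuclear pore.

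Of 6 genes that encode other regulators of the Sestrins, none was called at 135 min by group alone. At 405 min Foxo3 (1.25, SE 0.41) and Foxo1 (0.67, SE 0.21) were called higher and Atf4 lower (-0.45, SE 0.10), with edgeR adjusted p = 0.0386, 0.0333 and 0.00907. With the covariate only Atf4 passed at 405 min (-0.43, SE 0.10, edgeR adjusted p = 0.0114), and Foxo3 passed at 135 min (1.29, SE 0.33, adjusted p = 0.0256). At 405 min by group alone, 9.99% of all genes were called higher and 13.4% lower. With the covariate 6.87% were called lower at 405 min and 3.06% higher at 135 min.

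By group alone, none of 14 other tested genes of nucleotide excision repair was called at 135 min. At 405 min 4 were called higher in that fit, where 9.99% of all genes were. Among them were the helicase genes Ercc2 (1.29, SE 0.42) and Ercc3 (0.83, SE 0.26) and the ubiquitin ligase subunit gene Ercc8 (0.84, SE 0.27), with edgeR adjusted p from 0.0347 to 0.039. None of the 14 passed at 405 min with the covariate, while Ercc2 and Ercc8 were among those that passed at 135 min. Among 8 translesion partners of Polk, none was called at 135 min by group alone. Ube2b (-1.18, SE 0.40) and Rev3l (-0.68, SE 0.18) were called lower at 405 min (edgeR adjusted p = 0.047 and 0.0199), where 13.4% of all genes were. Neither was called with the covariate. With the covariate Rev1 was called higher at 135 min. Of 6 tested paralogues, the polo-like kinase gene Plk3 was called higher at 405 min in both fits, at 1.57 (SE 0.39, adjusted p = 0.0134) and 1.10 (SE 0.29, adjusted p = 0.0182). With the covariate Plk3 and the Phlda3 paralogue Phlda1 (0.69, SE 0.18, edgeR adjusted p = 0.0297) were called higher at 135 min, and the Zmat3 paralogue Zmat1 was called lower (-2.0, SE 0.43, adjusted p = 0.0116). None of the 6 was called at 135 min by group alone. Over all genes, 3.06% were called higher and 4.88% lower at 135 min with the covariate. At 405 min 9.99% were called higher by group alone and 6.17% with the covariate. A few calls in lists of this size are therefore not read as a result about the list.

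**Figure D4:**
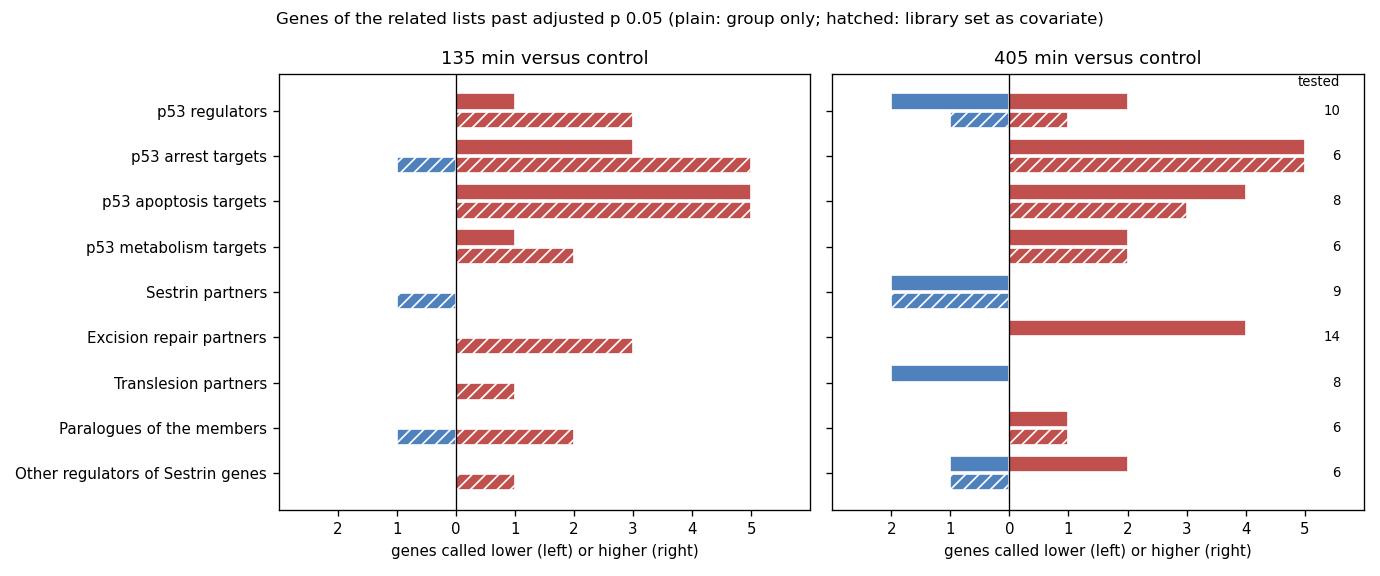
Number of genes of each related list past an adjusted p of 0.05 (x axis; bars to the left are genes called lower, to the right higher) at 135 and 405 min against control, plain by group alone and hatched with the library set as a covariate; the number tested is at the right. The arrest and apoptosis targets reach 5 genes higher, while the Sestrin partners have no gene higher and 2 lower at 405 min.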

How the data were processed

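The 15 samples were NIH3T3 cells carrying DD-GFP. The authors prepared poly(A) RNA libraries, aligned reads to mm9 and quantified them against RefSeq on DNAnexus (the aligner is not given in the sources used here), and deposited for each sample 2 values per gene, expected counts (not always whole numbers) and RPKM (per gene length and library depth). The submitters' processing notes name the build mm9. The deposited expected counts were rounded, genes with at least 1 count in every library were kept (10276 of 20207, as the authors removed genes with a count of 0), and all 15 libraries were fitted by group with TMM normalization and edgeR 4.0.16 (quasi-likelihood test, two-sided) in R 4.3.3, with Benjamini-Hochberg adjustment over all genes and a threshold of 0.05. DESeq2 1.42.0 was one alternative. The test had been planned for whole counts. SE is the absolute log2 fold change divided by the root of F. CPM is the rounded count divided by the normalized library size and multiplied by 1000000, and log2 levels used a prior count of 2. That size is the summed count of the genes kept, times the TMM factor. Totals ran from 6652539 to 30258404 counts per library.

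Exonic GC came from the GENCODE vM1 annotation of the same assembly, for 95.8% of the tested genes, and library sets were split at the widest gap between the slopes of log2 CPM on GC. Alternatives were other size factors, other filters, fits of 2 groups only, the replicate block, the set as covariate, fits within a set, a GC offset and leaving out each library. The fit was tested on simulated counts. No 2 replicates agreed within sampling noise. The 10 genes and the lists of related genes were chosen with earlier results of these data known. Of each list the text names up to 3 genes with the largest change among those called at 135 or 405 min, and Trp53 and Mdm2, with for each of the 10 genes the 3 with the highest correlation. Atr, Ppm1d, Aen, Apaf1, Ccng2, Phlda1, Zmat1 and Rev1 were named after their values were seen. Promoter windows are from RefSeq.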

Additional observations from a re-analysis of the deposited data

Results flagged for a closer look

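In 20 groups of 4 or 5 libraries examined for a value standing apart (the controls and the 405-min group of each of the 10 genes), 1 stood out. Phlda3 in control replicate 2 was at 71.3 CPM, against 11.9 to 18.9 CPM in the other 4 controls, and its gap to the nearest on the log2 scale was 0.74 of the range of the group, above Dixon's critical value of 0.71 for 5 samples. Chance alone gives such a flag in about 5% of groups. That library is the only control of set 2, and the exons of Phlda3 are 61.8% GC, richer than all but 1.1% of the tested genes. Over all libraries, this one among them, set 2 exceeded set 1 by 1.95 (SE 0.18) for Phlda3 (edgeR adjusted p = 4.12e-06). How much of this single value goes with the set was not tested. Without it Phlda3 was 1.56 above control at 135 min and 2.42 at 405 min on the log2 scale, beside 0.80 and 1.65 with all 5 controls.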

How the results depend on the processing

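Of 1153 refitted log2 fold changes of the 10 genes, under 15 fits that each left out 1 library and 11 other alternatives, 1007 kept their direction and their side of the threshold, 84 lost a call, 25 gained one and 37 changed sign. Size factors by median ratios and edgeR's filterByExpr left the counts of calls within 1.5 times. The number of the genes called higher at 45 min went from 0 to 1 with the library set as a covariate. At 135 min it went from 1 to 3 with DESeq2 or the GC offset, to 5 with the covariate, within set 1 and with the replicate block and the set together, and to 0 with only the 2 groups compared, and it ran from 0 to 3 over the fits without 1 library. At 405 min it went from 4 to 1 with only the 2 groups compared, to 2 with the covariate and to 0 within either set, and ran from 1 to 5 without 1 library. From 45 to 135 min it went from 1 to 0 within set 1 and to 2 with the block and the set, and from 0 to 1 without 1 library. From 135 to 405 min, 1 gene (Xpc) was called higher with only the 2 groups compared, and the number called lower went from 2 to 1 with no filter on low counts, with the block and the set or under the GC offset, to 0 within set 1, and from 0 to 2 without 1 library. The cause of these changes was not tested.

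Deviations from the group means correlated at -0.11 on average over 19 pairs with the same replicate number in the titles and at 0.028 over 64 with different numbers. They correlated at 0.157 within and -0.168 between library sets. Pairs with the same number shared a set less often than the others, so this comparison cannot decide whether the numbers pair the samples. With the replicate block, the number called higher was 0 at 135 min, 1 at 405 min and 0 from 45 to 135 min, and the number called lower from 135 to 405 min was 0. With the block and the set together, the number called higher was 5 at 135 min and 4 at 405 min. The labels do not say how replicates of different groups relate, and the cause of the lost calls was not tested.

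Signs changed for differences that were not called by group alone, and none of the 37 reversed values passed the threshold. With the covariate, within set 1 and with the block and the set, the change from 135 to 405 min was -0.50, -0.54 and -0.60 for Ei24 and -0.79, -0.74 and -0.83 for Phlda3. In the same order, Phlda3 from 45 to 135 min was 0.53, 0.49 and 0.59 (0.13 with the GC offset) and Xpc at 405 min was -0.14, -0.46 and -0.16 (-0.12 with the GC offset). Polk at 405 min was 0.26 with the covariate, 0.72 within set 2, 0.33 under the GC offset and 0.23 under block and set together. Within set 2, Sesn1 and Polk at 45 min were 0.44 and 0.23 and Plk2 at 405 min was 0.06, and within set 1 Sesn1 at 405 min was -0.06 and Sesn3 from 45 to 135 min was 0.01. Without 1 library, Sesn1 ran from -0.23 to 0.01 at 45 min and from -0.02 to 0.22 at 405 min, Xpc from -0.32 to 0.14 and from -0.04 to 0.41, and Polk at 405 min from -0.34 to 0.09. From 45 to 135 min, Sesn2 ran from -0.13 to 0.89, Sesn3 from -0.46 to 0.01 and Phlda3 from -0.73 to 0.48, and from 135 to 405 min Sesn2 ran from -0.37 to 0.19 and Ei24 from -0.02 to 0.23. Without control replicate 3, the library with no Ddb2 count, Ddb2 was at -0.15, -0.06 and -0.27 at 45, 135 and 405 min.

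Control replicate 3 had 6652539 counts, and Sesn2 and Sesn3 reached as few as 13 and 18 counts in a library, which sets the counting error of those values. Time and library set moved together, and at 135 min no library of set 2 was present.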
